A study of Mus musculus with 6 samples.

Results

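The genes described here encode the collagens, the laminins and the other core proteins of the basement membrane. They were taken from the deposited gene table as every protein-coding gene with a collagen chain or laminin chain symbol, together with Nid1, Nid2, Hspg2, Agrn, Fn1, Sparc and Dag1. The rule found 62 of the 32285 genes in the table: 44 collagens, 11 laminins and those 7 others. No measured value entered this rule, but the members were chosen with earlier results of these data known. By role, 23 encode basement membrane proteins, 36 encode other collagens and 3 (Fn1, Sparc and Dag1) encode proteins that tie matrix to matrix or matrix to cells.

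The study asked how blocking lactate dehydrogenase, the enzyme that makes lactate from pyruvate, alters gene expression in early cortical progenitors. Neocortex was taken from E10.5 mouse embryos of wild-type genotype, dissociated and grown in the wells of a plate in DMEM++ medium. About 2 hours later either GSK2837808A, an inhibitor of lactate dehydrogenase (the GSK group), or the same volume of its solvent DMSO was added. After about 24 hours, close to 1000 living cells carrying the surface protein CD133 were sorted per sample as CD133+ and DAPI-, and Smart-seq2 libraries were made from them in bulk. Both groups therefore share the wild-type genotype, the stage, the culture and the sort, and each holds 3 libraries. The labels give the inhibitor at 100 mM, a dose that was not checked here and is high for a compound dissolved in DMSO. They do not say whether the libraries of a group come from separate cultures or litters, so the p-values below measure only the spread between these libraries, which may be technical. Smart-seq2 does not mark the strand of a transcript.

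A basement membrane is a thin sheet of matrix that lies under epithelia and around vessels. Laminins, each a cross of 1 alpha, 1 beta and 1 gamma chain, assemble on the cell surface through integrins and dystroglycan. Type IV collagen forms a second network, and nidogens, perlecan (Hspg2) and agrin (Agrn) link the networks. In the developing neocortex the end feet of radial glia attach to the basement membrane under the pia, and loss of laminin chains, dystroglycan or perlecan is known to breach it. Fibrillar collagens such as types I, II and III instead form the banded fibres of connective tissue, mostly made by mesenchyme, and FACIT collagens decorate those fibres.

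What the collagen members share is the Gly-X-Y repeat, in which each triplet of residues starts with glycine, so that 3 chains can wind into a helix. In the GENCODE coding sequences the longest unbroken run of triplets starting with a glycine codon spanned 216 to 344 triplets in the 11 fibrillar collagens. Among the 6 type IV collagens it spanned 39 to 66 triplets, and each of these genes held 22 to 27 separate runs of at least 5 triplets. The multiplexins Col15a1 and Col18a1 had a longest run of 30 triplets each. The stretches below cross the end of the longest run in 3 members that the results turn on, and show how the uninterrupted fibrillar helix and the broken type IV helix differ at the level of the coding sequence. They lie at coding bases 3532 to 3639 of Col3a1, 3598 to 3705 of Col2a1 and 433 to 540 of Col4a1 (GENCODE vM21, 5′ to 3′). Capitals mark the glycine codons that begin a repeat triplet.
Col3a1: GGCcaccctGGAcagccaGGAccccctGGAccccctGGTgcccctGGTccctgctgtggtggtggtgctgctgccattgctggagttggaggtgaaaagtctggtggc
Col2a1: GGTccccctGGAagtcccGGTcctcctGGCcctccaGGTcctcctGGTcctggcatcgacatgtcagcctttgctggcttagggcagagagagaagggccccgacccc
Col4a1: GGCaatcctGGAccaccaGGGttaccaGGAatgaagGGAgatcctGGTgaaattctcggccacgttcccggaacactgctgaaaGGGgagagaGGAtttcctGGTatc
In Col3a1 and Col2a1 the long run ends, and no further run of at least 3 glycine triplets falls within the stretch. In Col4a1 the run stops and another starts within the same stretch.

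The libraries held 7187089 to 10224348 recovered reads each. Values are the authors' normalised read counts, and levels are compared between genes only per kilobase of the representative transcript. Ratios between chains, given further on, are not divided by length and are compared only between the groups, where length cancels. Among the 56 members that could be tested, DMSO replicate 3 was the highest DMSO library for 39, and GSK replicate 1 was the highest GSK library for 45. GSK replicate 3 was the lowest GSK library for 36 of them. The same was not counted over all genes tested, so these counts have no background to be read against.

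The cells are labelled as radial glial progenitors, and the radial glia markers were present in every library, beside markers of other cell types. Of the 9 radial glia markers tested, 6 (Pax6, Sox2, Nes, Hes5, Fabp7 and Hes1) fell in GSK, and their list summed to between 19622 and 20445 in DMSO and between 11148 and 14307 in GSK. The mean sums were 20038 in DMSO and 13240 in GSK. Over the 6 libraries 1 marker, with a mean of 9806, carried most of the sum. Mesenchyme and meninges markers were above 0 in every library apart from Foxc2, which was at 0 in DMSO replicates 2 and 3. That list summed to between 2957 and 4094 in DMSO and between 4327 and 4621 in GSK, with 1 of 11 tested markers lower (Ogn) and 1 higher (Prrx1). The 6 endothelial markers tested by limma gave 0 calls in either direction, with 2 lower at an unadjusted p under 0.05, 1 lower by edgeR and 0 by DESeq2. Their whole list of 12 summed to only 140 to 201 over the 6 libraries, and Cdh5 and Cldn5 were at 0 in some of them. Mural cell markers summed to between 2518 and 3516 in DMSO and between 1653 and 1876 in GSK, with Acta2 and Abcc9 lower and Pdgfrb at a mean of 904 in DMSO and 923 in GSK, and with Rgs5, Kcnj8 and Higd1b at 0 in some libraries. Red cell markers rose in 8 of 8 tested, from sums of 2343 to 20166 in DMSO to sums of 180497 to 269038 in GSK. Neuron markers summed to between 6776 and 13669 in DMSO and between 20487 and 25072 in GSK, with 3 of 6 higher. Myeloid markers summed to between 75.6 and 373 in DMSO and between 653 and 1560 in GSK, with 6 of 11 higher. Surface epithelium markers summed to between 36.2 and 46.7 in DMSO and between 55.2 and 116 in GSK, with 2 of 3 tested higher. Single genes of these lists were at 0 in some libraries (Hba-a2, C1qb, Krt19, Krt5 and Krt14). The part that these shifts in cell markers have in the matrix results was not tested, and in bulk samples fewer cells of a type and less RNA per cell cannot be told apart.

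Matrix genes fell far more often than they rose. Of the 62 members, 6 had a mean under 10 normalised counts and were not tested (Col4a3, Lamb3, Col15a1, Col19a1, Col6a4 and Col28a1, with single values between 0 and 13.7). Of the 56 tested, 27 were lower in GSK, 3 were higher and 26 did not pass an adjusted p of 0.05 in limma. Over all 15073 genes tested, 19.1% were called lower and 17.0% higher, against 48.2% and 5.36% of the members tested. The counts by class given below are to be read against the same shares over all genes. The median log2 fold change was -0.55 for the members tested and 0.01 for all genes tested. In 28 members every GSK library lay below every DMSO library, and in 3 every GSK library lay above, where the shares over all genes tested were 24.4% and 22.8%. Of the 27 lower members, 11 fell by at least 1 on the log2 scale, which is 2-fold. The matching share over all genes was not counted, so these 11 have no background to be read against. Without DMSO replicate 3 the count of lower members was 20, with 15.9% of all genes lower, and without GSK replicate 1 it was 35 of 54, with 21.6% of all genes lower. Member reads made up 0.739% of all normalised counts in DMSO and 0.471% in GSK.

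**Figure D1:**
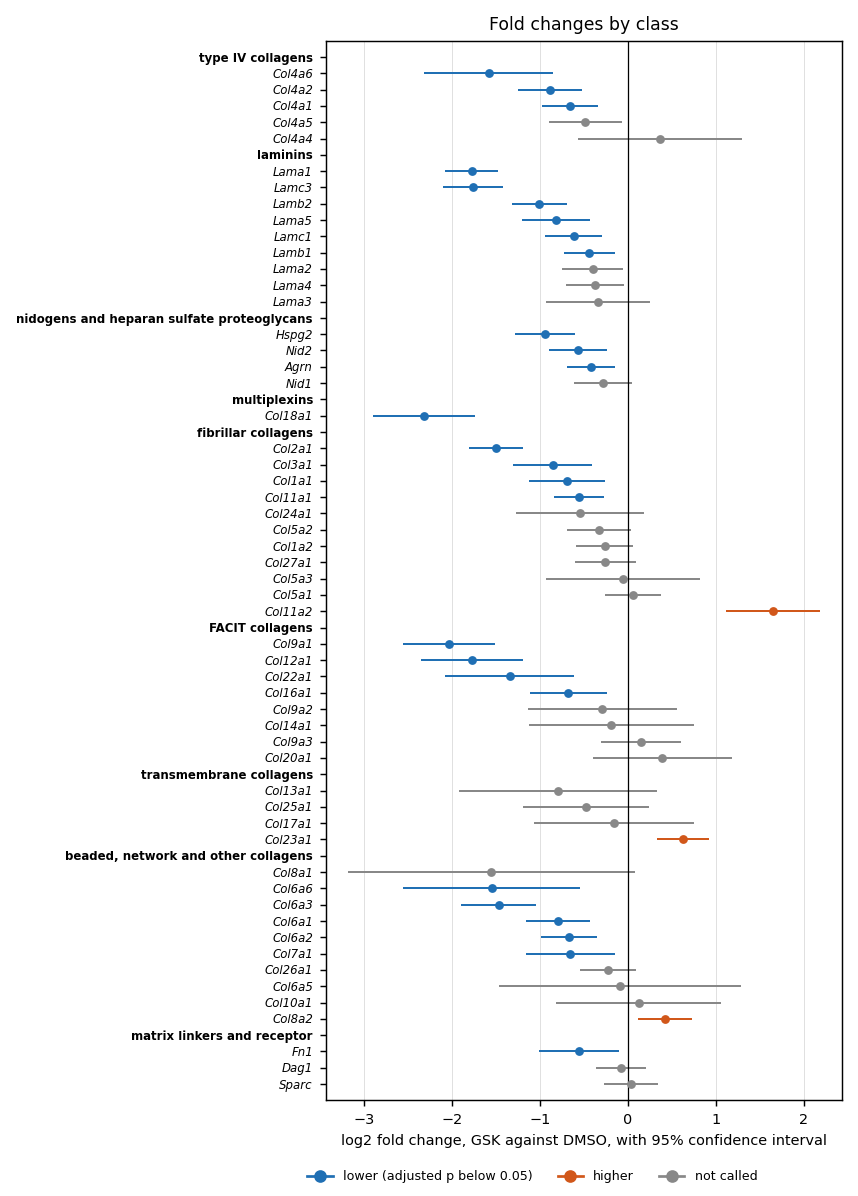
Log2 fold change of GSK against DMSO with its 95% confidence interval (horizontal axis) for the members described here, grouped by class, with blue for lower, orange for higher and grey for not called. The 3 orange genes are Col11a2, Col23a1 and Col8a2, and the interval farthest to the left in a called gene belongs to Col18a1 at -2.32.

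Transcripts of the members are long, with a median of 5.90 kb among those tested against 2.91 kb for all genes tested. Long genes were called lower more often in these libraries: 23.8% of 2846 genes between 4 and 6 kb and 26.0% of 1049 genes between 6 and 8 kb. Over 8 kb it was 24.5% of 776 genes, against 18.1% of 5946 genes between 2 and 4 kb. Long genes were also called higher less often, with 13.7%, 12.4% and 10.3% in that order against 18.9% between 2 and 4 kb. Of genes under 1 kb, 13.6% were called higher. With a correction for transcript length, added after the data were seen, 25 members were lower and 3 higher, with 20.3% of all genes lower and 19.0% higher, and the median of the members tested was -0.42.

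The laminins fell in 6 of the 10 chains tested, and the other 4 were not called. The class median was -0.72 on the log2 scale, and summed over the 11 chains the laminins measured 6079 ± 827 in DMSO and 3354 ± 389 in GSK (SD, n = 3 each). The deepest falls were those of an alpha and a gamma chain. Lama1, the alpha chain of the earliest embryonic laminin (chromosome 17, 67697259 to 67822647, GRCm38), measured 1351, 1271 and 1654 in DMSO and 485, 378 and 384 in GSK. Its log2 fold change was -1.78 (SE 0.14, adjusted p = 7.48e-09), and no GSK library came near any DMSO library. Lamc3, a gamma chain (chromosome 2, 31887291 to 31946539), measured 689, 655 and 822 in DMSO and 269.7, 175 and 201 in GSK. Here too the groups were far apart, with a log2 fold change of -1.76 (SE 0.16, adjusted p = 4.19e-08). Exons of the opposite strand cover 6.27% of the exonic bases of Lamc3 (Gm13441), and reads from both strands cannot be told apart there.

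The beta chains Lamb1 and Lamb2 fell as well. Lamb2 measured 489.7, 572 and 618 in DMSO and 309.5, 282 and 244 in GSK, a log2 fold change of -1.0 (SE 0.14, adjusted p = 1.47e-05) with no overlap. Lamb1, the most abundant laminin chain per kilobase (297 in DMSO and 217 in GSK), measured 1598, 1425 and 1923 in DMSO and 1241, 1237 and 1147 in GSK. The 3 GSK libraries of Lamb1 lay close together and below the DMSO libraries (log2 fold change -0.44, SE 0.13, adjusted p = 0.0145), but without DMSO replicate 3 the adjusted p was 0.105.

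Lamc1, the gamma chain present in most laminins, measured 424, 352 and 489 in DMSO and 305, 276 and 239.8 in GSK (log2 fold change -0.62, SE 0.15, adjusted p = 0.00328). Lama5, an alpha chain of vessel and epithelial laminins, was expressed at a lower level and measured 126, 139 and 149.6 in DMSO and 86.5, 80.9 and 67.9 in GSK. Both had all 3 GSK libraries below the DMSO libraries, and the log2 fold change of Lama5 was -0.82 (SE 0.18, adjusted p = 0.00139).

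Lama2, an alpha chain found around muscle and mesenchyme, had a log2 fold change of -0.40 (adjusted p = 0.0579), and without GSK replicate 1 its adjusted p was 0.0136. Lama4, an alpha chain of vessel walls, had -0.38 (adjusted p = 0.0586), and without GSK replicate 1 its adjusted p was 0.00134. Lama2 also passed without DMSO replicate 2 (adjusted p = 0.0173). Lama3, a chain of the epithelial laminin of skin, was low, with a mean of 43.2 in DMSO and a log2 fold change of -0.34 (adjusted p = 0.366). Lama2, Lama4 and Lama3 were not called.

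Type IV collagen fell in 3 of the 5 chains tested, with a class median of -0.66 on the log2 scale. Summed, the 6 chains measured 7780 ± 1538 in DMSO and 4558 ± 643 in GSK (SD, n = 3 each). Col4a1 and Col4a2 encode the chains of the ubiquitous type IV collagen and carried nearly all of that sum. Col4a1 measured 3464, 3475 and 4599 in DMSO and 2697, 2399 and 2172 in GSK, a log2 fold change of -0.66 (SE 0.15, adjusted p = 0.00154). Col4a2 measured 3003, 3508 and 4766 in DMSO and 2385, 1977 and 1690.3 in GSK, a log2 fold change of -0.88 (SE 0.17, adjusted p = 0.000346). In both genes DMSO replicate 3 was the highest library and the groups did not overlap. Per kilobase they were nearly equal in DMSO, 581 for Col4a1 and 583 for Col4a2, and stood at 366 and 313 in GSK.

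The type IV genes lie in head-to-head pairs, each transcribed outward from a shared region. Col4a1 on the minus strand (chromosome 8, 11198423 to 11312826) and Col4a2 on the plus strand (11312805 to 11449287) overlap by 22 bases at their starts. Col4a4 and Col4a3 on chromosome 1 start 72 bases apart, and Col4a6 and Col4a5 on chromosome X start 1309 bases apart. The pair on X had unequal fold changes. Col4a6 measured 41.4, 53.3 and 49.3 in DMSO and 25, 8.27 and 17 in GSK (log2 fold change -1.58, SE 0.35, adjusted p = 0.0013). Its partner Col4a5 measured 121, 105 and 96.6 in DMSO and 87.6, 79 and 63.7 in GSK, without overlap, but did not pass (log2 fold change -0.49, SE 0.19, adjusted p = 0.0551). Without GSK replicate 1 the adjusted p of Col4a5 was 0.0246. The pair on chromosome 1 was close to the detection limit, with Col4a4 at 19.1, 10.3 and 12.1 in DMSO and 35.3, 10.1 and 14.9 in GSK (log2 fold change 0.37, adjusted p = 0.548). Col4a3 measured 4.25, 5.16 and 8.36 in DMSO and 7.97, 3.68 and 2.12 in GSK and was not tested.

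The linkers of the basement membrane fell in 3 of 4 genes. Hspg2 encodes perlecan, the large heparan sulfate proteoglycan of basement membranes, and measured 1105, 1287 and 1749 in DMSO and 801, 723 and 599.5 in GSK. Its log2 fold change was -0.95 (SE 0.16, adjusted p = 0.0001), with every GSK library below every DMSO library. Agrn, which binds laminin and dystroglycan, measured 1377, 1587 and 1497 in DMSO and 1205, 1077 and 1053 in GSK. The fall of Agrn was smaller, with a log2 fold change of -0.42 (SE 0.13, adjusted p = 0.0128), and it did not pass without DMSO replicate 2 (adjusted p = 0.0832) or without GSK replicate 2 (adjusted p = 0.073).

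The nidogens bridge laminin and type IV collagen. Nid2 measured 703, 767 and 960.0 in DMSO and 659, 544 and 441 in GSK (log2 fold change -0.57, SE 0.15, adjusted p = 0.00647), and without DMSO replicate 3 its adjusted p was 0.0551. Of its exonic bases, 8.45% are covered by Rtraf on the opposite strand. Nid1, with more counts per kilobase (409 in DMSO and 336 in GSK, against 166 and 112 for Nid2), measured 2431, 2055 and 2992 in DMSO and 2295, 2098 and 1740.2 in GSK. Those ranges overlapped, and Nid1 did not pass (log2 fold change -0.28, SE 0.15, adjusted p = 0.164), although without GSK replicate 1 the adjusted p was 0.0496.

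Col18a1 had the lowest fold change of the members tested. It encodes the core protein of type XVIII collagen, a basement membrane heparan sulfate proteoglycan whose cleaved end, endostatin, is known as an inhibitor of vessel growth. On chromosome 10 (77052178 to 77166548), it measured 513, 574 and 519 in DMSO and 159, 115 and 65.8 in GSK. The 3 DMSO libraries lay within a narrow range and the GSK libraries far below it, a log2 fold change of -2.32 (SE 0.26, adjusted p = 3.52e-05). The other multiplexin, Col15a1, stood between 3.68 and 10.3 in the 6 libraries and was not tested.

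**Figure D2:**
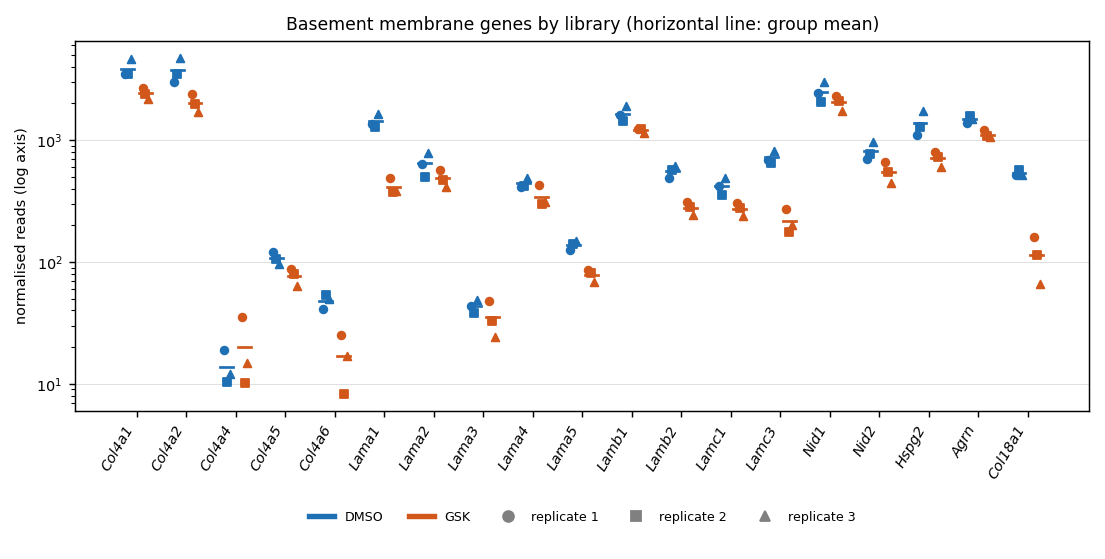
Normalised reads on a log axis in each of the 3 DMSO (blue) and 3 GSK (orange) libraries for the basement membrane members described here, with a line at each group mean and the marker shape giving the replicate. Lama1, Lamc3 and Col18a1 show DMSO and GSK points far apart, while the points of Nid1 overlap.

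Summed over the 23 basement membrane genes, the libraries measured 18609, 18848 and 24259 in DMSO and 14152, 12273 and 10903 in GSK. The groups did not overlap, and the GSK mean of 12443 ± 1631 was 0.605 times the DMSO mean of 20572 ± 3195 (SD, n = 3 each). Of the 20 tested, 13 were lower, where 19.1% of all genes tested were lower and 17.0% higher. Limma called 0 of the 20 higher, also at an unadjusted p under 0.05, as did edgeR and DESeq2. The median was -0.64 on the log2 scale. The radial glia and mural cell marker sums were both lower in GSK in the same libraries, while the mesenchyme sum was higher and the endothelial sums overlapped. Which cells the fall in basement membrane genes came from was not tested.

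Ratios were taken between chains that can share a molecule (such as Lama1 and Lamb1), between alternative chains of 1 kind (Lamc3 and Lamc1, Lamb2 and Lamb1) and between related linkers. For 12 pairs of members the log2 ratio of value + 1 was taken in each library and compared by a two-sided exact permutation test, whose smallest possible p with 3 against 3 libraries is 0.1. Lama1 relative to Lamb1 stood at -0.24, -0.17 and -0.22 in DMSO and at -1.35, -1.71 and -1.58 in GSK, a difference of -1.34. Lama1 relative to Lamc1 differed by -1.16, and Lamc3 relative to Lamc1 by -1.14. Smaller differences were -0.57 for Lamb2 relative to Lamb1 and -0.38 for Lama5 relative to Lamb1. For Col4a6 relative to Col4a5 the difference was -1.09, for Hspg2 relative to Agrn -0.53, and for Nid2 relative to Nid1 -0.29. In each of these 8 pairs the GSK libraries lay wholly below the DMSO libraries (exact permutation p = 0.1 each, Benjamini-Hochberg adjusted over the 12 pairs p = 0.109). For Nid2 relative to Nid1 the groups nearly touched, with DMSO replicate 1 at -1.788 and GSK replicate 1 at -1.799. Col4a2 relative to Col4a1 differed by -0.23 with overlapping libraries (exact permutation p = 0.2, adjusted p = 0.2). No pair could pass 0.05 in this design. The pairs were picked by hand, with earlier results of these data known. Each difference restates the gap between the log2 fold changes of the paired genes and is not separate support for them. How often ratios of other gene pairs separate the groups was not counted.

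Among the other collagens, 13 of the 33 tested were lower and 3 higher, against 19.1% and 17.0% of all genes tested. Their median log2 fold change was -0.48. Summed over 36 genes they measured 35236 ± 4714 in DMSO and 23666 ± 6268 in GSK (SD, n = 3 each), 0.672 times as much. GSK replicate 1 stood at 30826, next to the lowest DMSO library at 32335, whereas GSK replicates 2 and 3 stood at 20993 and 19177. The 2 groups of libraries did not overlap, but only narrowly. Most of the summed level came from Col3a1, Col1a1 and Col1a2. Their means were 15373, 5784 and 5433 in DMSO and 8858, 3643 and 4519 in GSK.

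**Figure D3:**
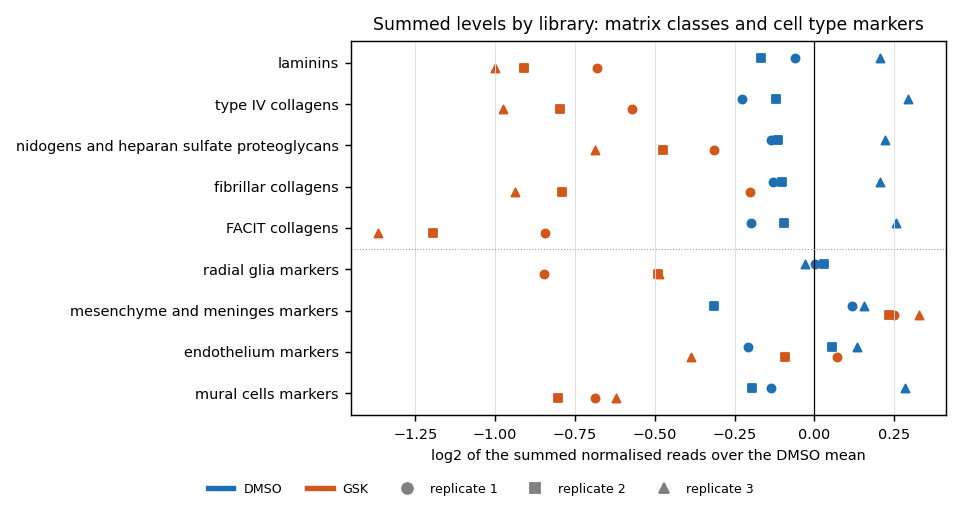
Log2 of the summed normalised reads of each library over the DMSO mean (horizontal axis) for 5 matrix classes, above the dotted line, and 4 lists of cell type markers, below it. Blue points are DMSO and orange points GSK libraries, with the marker shape giving the replicate. The GSK points lie left of the DMSO points in the 5 matrix classes, GSK replicate 1 the closest of the 3. GSK points also lie left of the DMSO points for radial glia markers, where GSK replicate 1 is the farthest, and for mural cell markers, where GSK replicate 3 is the closest, but not for those of mesenchyme or endothelium. The other matrix classes are not drawn. Of these, summed multiplexins were lower in GSK without overlap, and sums of the beaded, network and other collagens and of the linkers overlapped. Summed transmembrane collagens were higher in GSK without overlap, at 471 ± 59.2 in DMSO and 683 ± 67.3 in GSK (SD, n = 3 each).

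Fibrillar collagens fell in 4 of 11 genes and rose in 1, where 19.1% of all genes tested were lower and 17.0% higher. Col3a1, a chain of soft connective tissue and vessel walls (chromosome 1, 45311538 to 45349706), had the highest level per kilobase of the members, 2763 in DMSO and 1592 in GSK. It measured 13966, 14610.0 and 17542 in DMSO and 12794, 7008 and 6773 in GSK, so that GSK replicate 1 came close to the DMSO libraries and the other 2 were far below. Its log2 fold change was -0.85 (SE 0.21, adjusted p = 0.00398 in limma), and DESeq2 gave an adjusted p of 0.0693. Col1a1, the main chain of type I collagen, measured 5015, 5248 and 7089 in DMSO and 4973, 3209 and 2748 in GSK. GSK replicate 1 lay just under the lowest DMSO library (log2 fold change -0.70, SE 0.20, adjusted p = 0.0118), and without DMSO replicate 3 the adjusted p was 0.0579. Its partner chain Col1a2, at 5433 ± 748 in DMSO and 4519 ± 616 in GSK, did not pass (log2 fold change -0.27, adjusted p = 0.18), although without GSK replicate 1 the adjusted p was 0.00862. Col1a1 relative to Col1a2 differed by -0.43 on the log2 scale, with no overlap (exact permutation p = 0.1, adjusted p = 0.109). The groups nearly touched, with DMSO replicate 1 at -0.041 and GSK replicate 1 at -0.056.

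Col2a1 and Col11a1, which join in the fibres of cartilage and of early embryonic matrix, were both lower in GSK. Col2a1 (chromosome 15, 97975602 to 98004695) measured 1064, 1255 and 1367 in DMSO and 518, 411 and 377 in GSK, a log2 fold change of -1.50 (SE 0.14, adjusted p = 8.83e-08). Col11a1 measured 500.3, 497 and 554 in DMSO and 349, 375 and 333 in GSK (log2 fold change -0.55, SE 0.13, adjusted p = 0.0025). No GSK library overlapped the DMSO libraries for either gene.

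Col11a2, another chain of type XI collagen, moved the opposite way. It measured 24.4, 32.6 and 26 in DMSO and 121, 74.4 and 76.4 in GSK, and its groups were well apart (log2 fold change 1.65, SE 0.25, adjusted p = 3.35e-05). Relative to Col11a1 it differed by 2.20 on the log2 scale (exact permutation p = 0.1, adjusted p = 0.109). The level stayed low, at 5.14 per kilobase in DMSO and 16.8 in GSK, where Col11a1 stood at 67.4 and 46.

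The other 6 fibrillar genes were not called. Col5a1 and Col5a2, which set the width of type I fibres, had log2 fold changes of 0.06 (adjusted p = 0.788) and -0.33 (adjusted p = 0.139), and without GSK replicate 1 Col5a2 had an adjusted p of 0.000268. Col1a2 is given above. Col27a1, Col24a1 and Col5a3 had log2 fold changes of -0.26, -0.54 and -0.06 at adjusted p between 0.221 and 0.929.

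FACIT collagens fell in 4 of the 8 genes tested. Col12a1, which binds the surface of type I fibres, measured 357, 372 and 521 in DMSO and 190.0, 98.3 and 91.3 in GSK, without overlap (log2 fold change -1.77, SE 0.26, adjusted p = 0.000265). Col16a1, which occurs at basement membrane zones and on fibres, measured 107, 149.5 and 201 in DMSO and 101, 95.6 and 80.6 in GSK. Its DMSO libraries were widely spread (log2 fold change -0.68, SE 0.21, adjusted p = 0.0142), and without DMSO replicate 3 the adjusted p was 0.112.

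Col9a1, a chain of type IX collagen that sits on type II fibres, had a mean under 100. It and Col22a1, Col6a6, Col7a1 and Col11a2, called members with a mean under 100, are given by library because their values had been seen. Col9a1 measured 109, 99.7 and 119.9 in DMSO and 18.2, 31.2 and 30.8 in GSK, with a wide gap between the groups (log2 fold change -2.03, SE 0.24, adjusted p = 1.92e-06). The other type IX chains were not called: Col9a2 had a log2 fold change of -0.29 (adjusted p = 0.608) and Col9a3 of 0.15 (adjusted p = 0.624). Col22a1, a collagen of tissue junctions, measured 29.7, 36.1 and 39 in DMSO and 14.8, 8.27 and 18 in GSK (log2 fold change -1.34, adjusted p = 0.00467). Col14a1 and Col20a1 were low and not called, with log2 fold changes of -0.19 and 0.39, and Col19a1 was not tested.

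Type VI collagen forms beaded filaments around cells, and its 3 classical chains fell together. Col6a1 measured 237, 228 and 228 in DMSO and 163, 134 and 107 in GSK (log2 fold change -0.79, SE 0.17, adjusted p = 0.001). Col6a2, its neighbour on chromosome 10, measured 371, 368 and 460.0 in DMSO and 275, 259 and 219 in GSK (log2 fold change -0.67, SE 0.15, adjusted p = 0.00143). Col6a3, the largest chain of the filament, measured 232, 179.6 and 256 in DMSO and 106, 62.5 and 74.3 in GSK (log2 fold change -1.47, SE 0.20, adjusted p = 8.85e-06). All 3 had separate groups, and Col6a3 relative to Col6a1 differed by -0.67 on the log2 scale (exact permutation p = 0.1, adjusted p = 0.109). Col6a6 was low, at 22.3, 12.9 and 32.5 in DMSO and 10.2, 8.27 and 3.18 in GSK (log2 fold change -1.55, adjusted p = 0.0152). Leaving out DMSO replicate 1 (adjusted p = 0.0575), DMSO replicate 3 (0.104) or GSK replicate 3 (0.0645) ended that call. Col6a5 was not called (log2 fold change -0.09, adjusted p = 0.934).

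Of the remaining network collagens, Col7a1, which forms anchoring fibrils under epithelia, measured 75.4, 73 and 128 in DMSO and 66, 60.6 and 44.6 in GSK (log2 fold change -0.65, adjusted p = 0.038). DMSO replicate 3 stood apart, and without it the adjusted p was 0.245. The call was also lost without GSK replicate 2 (0.0577) and without GSK replicate 3 (0.136). Col8a2, a chain of the sheet-forming type VIII collagen, was higher, at 355, 341 and 432 in DMSO and 554, 518 and 438 in GSK (log2 fold change 0.42, SE 0.14, adjusted p = 0.0253). The lowest GSK library of Col8a2 lay just above the highest DMSO library, and the call was lost when DMSO replicate 1 (adjusted p = 0.0938), DMSO replicate 2 (0.126) or GSK replicate 2 (0.0995) was left out.

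Its partner chain Col8a1 had a log2 fold change of -1.55 with an SE of 0.70 (adjusted p = 0.124). GSK replicate 1 held 42.1 of Col8a1 against 11.9 and 4.24 in the other GSK libraries, and without it the adjusted p was 4.82e-05. Col26a1, the member of this class with the highest level per kilobase, measured 723, 670.2 and 955 in DMSO and 761, 589.9 and 643 in GSK. Those libraries overlapped (log2 fold change -0.23, adjusted p = 0.242). Col10a1, the collagen of cartilage that turns to bone, stayed near 10.2 in DMSO and 11.4 in GSK and was not called.

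Transmembrane collagens span the cell membrane and can be shed. Col23a1 rose, from 445, 353 and 455 in DMSO to 671, 579.8 and 675 in GSK, with every GSK library above every DMSO library (log2 fold change 0.62, SE 0.14, adjusted p = 0.00139). Col13a1, Col17a1 and Col25a1 had means under 30 in both groups, with log2 fold changes between -0.79 and -0.16, and were not called.

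**Figure D4:**
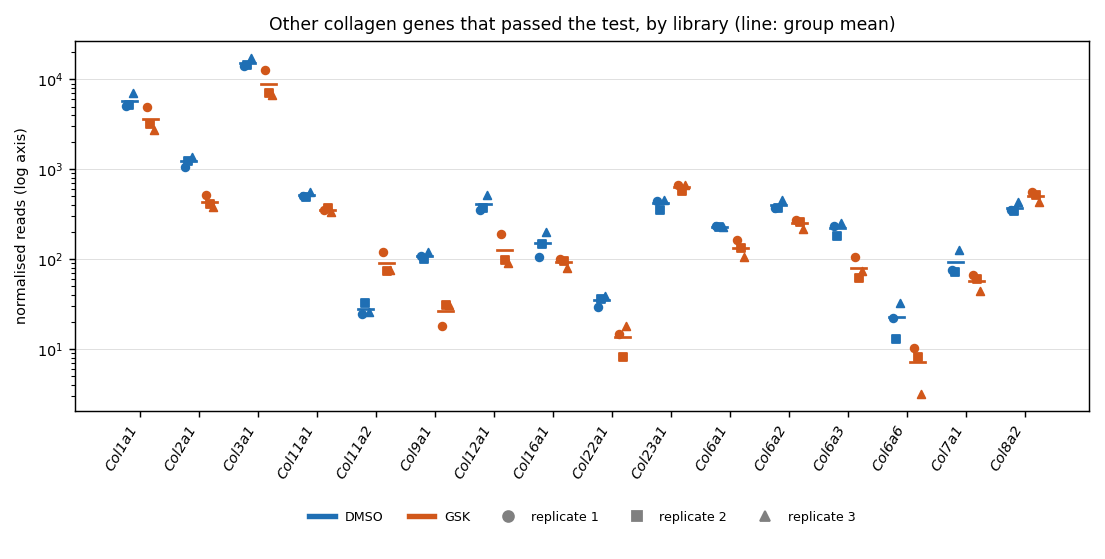
Normalised reads on a log axis in each of the 3 DMSO (blue) and 3 GSK (orange) libraries for the 16 other collagen genes that passed the test, with a line at each group mean and the marker shape giving the replicate. Col2a1, Col9a1, Col12a1 and Col6a3 lie lower in GSK, and Col11a2, Col23a1 and Col8a2 lie higher.

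Of the 3 linkers, Fn1 was called lower, without separate groups, and the other two were not called. Fn1, which encodes fibronectin, measured 3171, 3069 and 3924 in DMSO and 3408, 1888 and 1853 in GSK. GSK replicate 1 lay among the DMSO libraries, and the call (log2 fold change -0.56, SE 0.21, adjusted p = 0.0485) was lost without DMSO replicate 1 (adjusted p = 0.0825), DMSO replicate 2 (0.0509), DMSO replicate 3 (0.125), GSK replicate 2 (0.164) or GSK replicate 3 (0.187). It was lost as well in edgeR (0.133) and DESeq2 (0.274). Sparc, a secreted protein that binds collagen, measured 2853, 2414 and 3215 in DMSO and 2606, 2897 and 3151 in GSK (log2 fold change 0.03, 95% interval -0.26 to 0.33). Dag1, which encodes dystroglycan, measured 673, 642 and 795 in DMSO and 682, 698 and 607 in GSK (log2 fold change -0.08, 95% interval -0.36 to 0.19). Both overlapped between groups and were not called (adjusted p = 0.876 and 0.652). Per kilobase, Sparc stood at 1229 in DMSO and 1254 in GSK, below Col3a1 and above the type I chains Col1a2 (1016 and 845) and Col1a1 (975 and 614) in either group.

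The 5 lists of related genes give the setting of these values; each is read against the 19.1% lower and 17.0% higher over all genes tested. The receptor list of integrin subunits, syndecans, Bcam and discoidin receptors was lower in 8 of 24 tested and higher in 4. Its median log2 fold change was -0.16, and it includes integrins that bind matrix ligands other than laminin and collagen. Itga6, the alpha subunit of laminin-binding integrins, measured 291, 243 and 283 in DMSO and 118, 121 and 93.4 in GSK (log2 fold change -1.29, adjusted p = 3.44e-06). Itga8 and Itgb8, subunits of integrins that bind other matrix ligands, had log2 fold changes of -1.51 (adjusted p = 5.34e-05) and -1.03 (adjusted p = 9.14e-05). Sdc4, a heparan sulfate proteoglycan of the cell surface, rose from 189 ± 28.7 to 369 ± 109.5 (SD, n = 3 each), with a log2 fold change of 0.92 (adjusted p = 0.00121). The other receptors that rose, named after their values were seen, were Itgb5, Ddr2 and Sdc2, with log2 fold changes of 0.52, 0.51 and 0.45.

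The dystroglycan complex and the enzymes that add its laminin-binding sugar were lower in 3 of 27 and higher in 3, with a median of 0.03. Dmd, which encodes dystrophin, measured 216, 199 and 262 in DMSO and 60.3, 39.5 and 52 in GSK (log2 fold change -2.15, adjusted p = 4.55e-08). Dtna, a dystrophin partner, had a log2 fold change of -0.58 (adjusted p = 0.0182). Its adjusted p was 0.1 when DMSO replicate 1 was left out, 0.0613 when DMSO replicate 2 was, and 0.0842 when GSK replicate 2 was. B4gat1, which primes the laminin-binding sugar, had one of 0.64 (adjusted p = 0.00211). Sgcb, a sarcoglycan, had one of 0.41 (adjusted p = 0.033), a call lost in 6 of 16 alternatives, among them without each DMSO replicate (0.0672, 0.0654 and 0.111) and without GSK replicate 2 (0.197). Pomt1, named after its values were seen, was also lower (log2 fold change -0.41, adjusted p = 0.0406).

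Genes for collagen synthesis, folding and crosslinking were lower in 6 of 29 and higher in 2, with a median of -0.16. Adamts3, a protease that trims procollagen ends, measured 240.1, 271 and 296 in DMSO and 22.8, 25.7 and 19.1 in GSK (log2 fold change -3.53, adjusted p = 8.99e-11), a lower fold change than that of any member tested. Lox, the enzyme that crosslinks collagen and elastin, had a log2 fold change of -1.54 (adjusted p = 1.32e-05). Pcolce2, which aids the trimming of procollagen, had one of -2.56 (adjusted p = 8.36e-05), at low counts of 35.8 ± 5.23 and 5.72 ± 3.19 (SD, n = 3 each). Plod2, a lysyl hydroxylase, rose by 0.66 on the log2 scale (adjusted p = 0.00157), and so did its relative Plod1, named after its values were seen, by 0.46 (adjusted p = 0.0273).

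Matrix proteases and their inhibitors were lower in 8 of 22 and higher in 2, with a median of -0.27. Adamts17 and Adamts18, secreted metalloproteases, had log2 fold changes of -2.61 (adjusted p = 1.91e-07) and -2.59 (adjusted p = 7.69e-07). Mmp17 and Adamts1 had -1.89 (adjusted p = 1.2e-05) and -1.62 (adjusted p = 0.000134). The 2 that rose, named after their values were seen, were Plau, the urokinase protease, from 10.7 ± 4.45 to 49.2 ± 23 (SD, n = 3 each; log2 fold change 2.08, adjusted p = 0.000272), and Mmp24 (log2 fold change 0.91, adjusted p = 0.00366). Other matrix and matricellular proteins were lower in 16 of 43 and higher in 6, with a median of -0.33. The glypicans Gpc6 and Gpc1 had log2 fold changes of -1.53 (adjusted p = 2.73e-08) and -1.29 (adjusted p = 9.85e-08). Frem2 and Fras1, partners in a complex that anchors epithelia to the basement membrane, had log2 fold changes of -1.80 (adjusted p = 2.78e-07) and -1.35 (adjusted p = 3.45e-07).

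Start regions were available from RefSeq (GRCm38.p6) for 45 members in 51 windows of 250 bases before the start. They were searched on both strands for GGGCGG (the core of a GC box), CCAAT and TATAAA, which do not overlap each other. GGGCGG occurred in 32.7% of 32851 such windows over all genes and in 30 of the 51 member windows, CCAAT in 33.8% and in 17, and TATAAA in 12.4% and in 5. The windows of the member with the lowest fold change, Col18a1 (chr10:77166549-77166780, minus strand), and of the member with the highest, Col11a2 (chr17:34038888-34039137, plus strand), are shown 5′ to 3′ with these matches in capitals. For Col18a1 the window with the highest start coordinate was taken. It is given up to the GENCODE start of the gene and holds 232 bases. The window of Col11a2 ends before the RefSeq start, upstream of the GENCODE start of that gene at 34039437.
Col18a1: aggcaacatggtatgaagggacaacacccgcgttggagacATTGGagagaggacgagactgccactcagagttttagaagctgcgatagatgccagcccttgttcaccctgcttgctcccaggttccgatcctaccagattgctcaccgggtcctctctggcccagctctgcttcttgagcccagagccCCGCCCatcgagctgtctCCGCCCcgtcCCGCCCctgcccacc
Col11a2: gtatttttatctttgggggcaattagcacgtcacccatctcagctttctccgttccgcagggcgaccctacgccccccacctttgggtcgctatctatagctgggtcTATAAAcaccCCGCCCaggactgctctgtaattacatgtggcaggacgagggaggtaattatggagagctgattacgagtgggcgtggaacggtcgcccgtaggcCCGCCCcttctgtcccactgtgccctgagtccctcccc
The window of Col18a1 held 3 GGGCGG matches and 1 CCAAT match, and that of Col11a2 held 2 GGGCGG matches and 1 TATAAA match. These are matches of letters in a window and were not tested as binding sites.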

How the data were processed

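Bulk Smart-seq2 libraries of sorted cells, 3 per group, were analysed. The deposited values are a signal, read counts divided by a size factor, in 1 table of 118098 rows that repeats 32285 genes, 128 of them without a name. Per the submitters' processing notes, STAR, DESeq, GRCm38 and mm10 were used, with no version or role; which counter and annotation were used is not given in the sources used here. Whole reads were recovered from the signal in 100% of values (within 0.01 of a read), 7187089 to 10224348 per library.

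Genes with a mean of at least 10 were tested by limma 3.58.1 in R 4.3.3 (trend and robust) on log2(value + 1), fitting group alone, with p-values adjusted by the Benjamini-Hochberg method over 15073 genes, after a check on simulated data. Fold changes are on that scale and understate those of low genes. On recovered reads edgeR 4.0.16, with its quasi-likelihood test, called 3007 genes lower and 2529 higher; DESeq2 1.42.0 was also run. Libraries pool about 1000 cells, which limits the precision of low genes.

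The members, gene lists and pairs of chains were chosen with earlier results of these data known. Values per library are given for called members with a mean of at least 100, the highest member of each class and the head-to-head type IV pairs, and up to 4 called genes are named from each related list. Alternatives were other pseudocounts, filters, scalings and tests, a replicate block, each library left out, and a length correction added after the data were seen. Sequences come from GENCODE vM21 and RefSeq. The values of 1 member and of 1 gene of a related list are not reported here; both stay in the counts and sums.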

Additional observations from a re-analysis of the deposited data

How the results depend on the processing

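Over 16 alternatives, 20 of the 30 called members kept their call in every one that tested them (18 lower and 2 higher, Col11a2 and Col23a1), and 0 reversed. Lower and higher members numbered 27 and 3 of 56 with a pseudocount of 0.5 (19.1% and 17.0% of all genes) or 10 (19.4% and 17.4%). They numbered 30 and 3 of 62 without a filter on low values (9.46% and 8.15% of all genes), 22 and 2 of 34 at a mean of at least 100 (23.5% and 18.2%), and 26 and 2 of 56 with library totals made equal (21.7% and 13.6%). TMM scaling gave 26 and 3 (19.8% and 16.5%), edgeR 26 and 3 (19.9% and 16.8%), and DESeq2 24 and 3 (18.1% and 15.9%). Leaving out 1 library gave 20 to 35 lower and 2 to 3 higher, with 14.8% to 21.6% and 11.5% to 20.4% of all genes. Within them, basement membrane genes gave 11 to 18 lower and other collagens 9 to 16 lower and 2 to 3 higher. The summed basement membrane level in GSK was then 0.563 to 0.664 times that in DMSO, and that of other collagens 0.57 to 0.735 times. Calls lost under other settings, with the cause not tested, were those of Col1a1 with equal totals (adjusted p = 0.0612) and DESeq2 (0.108), Col8a2 with equal totals (0.0812), Fn1 with equal totals (0.14), TMM (0.0809) and the length correction (0.0899), and Col7a1 with the length correction (0.0867).

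Among the related lists, a mean of at least 100, which leaves fewer genes to test, gave 5 lower of 15 receptors, 2 lower and 0 higher of 12 proteases and 3 higher of 28 other matrix genes tested, where 23.5% of all genes were lower and 18.2% higher. Equal totals gave 2 higher receptors, 1 higher dystroglycan gene and 1 higher collagen synthesis gene. No filter gave 1 and the length correction 6 higher dystroglycan genes. Leaving out 1 library gave 2 to 4 higher receptors, 1 to 5 lower and 1 to 4 higher dystroglycan genes, and 3 to 7 lower and 1 to 2 higher collagen synthesis genes. The causes were not tested.

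With the replicate number as a block, 32 members were lower and 3 higher, with 19.8% and 17.7% of all genes. Same-numbered libraries did not deviate together (correlations 0.01, -0.02 and 0.05), not every library correlated best with its own number, and the labels do not say that the numbers pair the samples. Low counts limit the 22 tested members with a mean under 100, of which 16 were not called, and the p-values cover 3 libraries a group from cells that also differed in red cell and neuron markers.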
